A study of Homo sapiens with 27 samples.

Results

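The comparison described here is that of U937 cells after 24 h of matrine treatment with control U937 cells, and its members are the genes with a mean FPKM above 1 over the 6 libraries compared. This rule kept 12035 of the 57905 gene identifiers in the deposited table. The account centres on the 1820 genes that were up-regulated at 24 h, and on the 55 of them with a mean control level under 0.5 FPKM, which are called switch-on genes. FPKM, the fragments mapped to a gene per kilobase of its length and per unit of sequencing depth, is a level corrected for gene length and library size.

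RNA-seq was performed on 27 libraries of U937, HL-60 and K562 cells, of which the 9 from U937 were used. U937 is an established human promonocytic cell line, labelled as myeloid leukemia cells, which was grown as a bulk culture in RPMI medium with serum. The groups were 3 libraries of control cells, 3 of cells kept for 24 h with matrine at 0.8 mg/mL, and 3 of cells exposed to that dose for 30 min. Matrine is a plant alkaloid from Sophora that was dissolved in water, and water served as the vehicle in the study. There was a single control group whose culture time is not stated, so that 24 h of treatment and 24 h more in culture cannot be told apart.

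Cells of the monocyte lineage take up particles and lipoproteins, break them down in lysosomes, and carry receptors for complement fragments and antibody. Their sterol content is held steady by the transcription factor SREBP-2, which is cut loose in the Golgi when membrane sterol falls and then switches on the enzymes of the mevalonate pathway. Promonocytic lines such as U937 grow fast, with high expression of MYC, chaperones and ribosome assembly factors, and can be driven towards macrophage-like cells by several agents.

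The total count per library was 17314931 to 20796079 in the control and 20366304 to 21849040 at 24 h. A count was present for 20890 to 21338 genes in the control libraries, for 20861 to 21006 at 30 min and for 22142 to 22283 at 24 h. The 24 h libraries therefore showed more genes than either other group, although the totals of the 30 min libraries, 20402383 to 21930018, were like theirs. Of 11 markers of U937 identity, 10 were tested; the exception was CD68, at 0.557 FPKM in the control and 0.72 at 24 h, and MPO was nearly absent from the control. Of the marker lists of other cell types, that of T and NK cells had 10 of 21 genes at 0 in all 6 libraries. Its summed level without NKG7, a granule membrane protein at a mean of 229 FPKM, was 0.56 to 0.83 FPKM in the control and 0.65 to 1.43 at 24 h. Epithelial markers had 5 of 14 genes at 0 and summed to 0.62 to 0.71 FPKM in the control and 1.74 to 2.63 at 24 h, with MUC1 as the leading gene, and their part in the results was not tested. Summed levels in the control and at 24 h were 6.14 to 7.31 and 7.01 to 8.24 FPKM for erythroid, 4.78 to 5.54 and 5.26 to 5.58 for B and plasma cell, 20.4 to 24.0 and 21.6 to 23.3 for megakaryocyte, 3.57 to 4.03 and 2.60 to 2.99 for fibroblast and endothelial, and 1.36 to 1.70 and 1.83 to 1.94 for neuronal markers. Called genes on these lists were NKG7, MUC1, CD79A and GP1BA, which rose, and PAX5, which fell. In a bulk culture, fewer cells of a kind and less RNA per cell cannot be told apart.

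Of the 12035 genes tested, 15.1% were up-regulated (1820 genes) and 11.2% were down-regulated (1344 genes) where a call needed a Benjamini-Hochberg adjusted p under 0.05 in edgeR's quasi-likelihood test and a change of 1.5-fold or more. The increases were the larger changes: 765 genes rose by a fold of 2 or more against 355 that fell by as much, 146 against 20 at a fold of 4, and 32 against 4 at a fold of 8. The median fold was 1.89 among up-regulated genes and 1.76 among down-regulated genes. In 1794 of the up-regulated genes all 3 libraries at 24 h lay above all 3 controls, an order held by 38.7% of the genes tested. For a single gene, 3 libraries against 3 cannot give an exact two-sided permutation p below 0.1, so the calls rest on the fit across all genes.

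**Figure D1:**
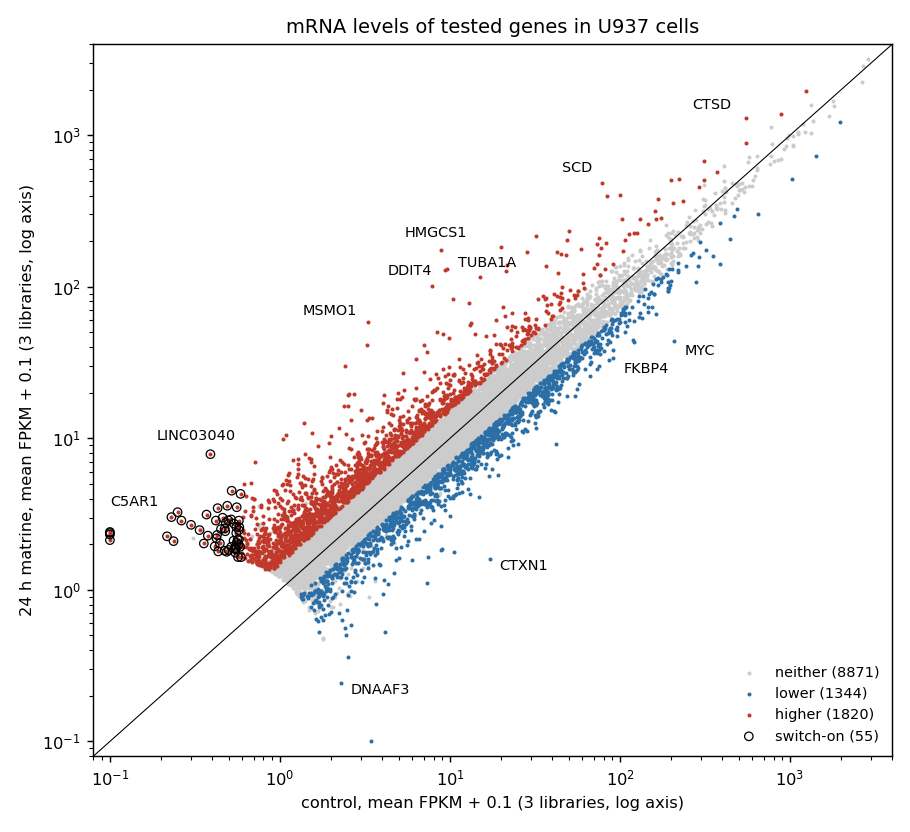
Mean mRNA level in control (x axis) and 24 h matrine (y axis) U937 libraries for the 12035 tested genes, as FPKM + 0.1 on log axes, 3 libraries per group. Red points are the 1820 genes called higher, blue points the 1344 called lower, and rings the 55 switch-on genes, which sit at the left below 0.5 FPKM in the control.

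The 4 marker genes of the comparison were read first. HMGCS1, which makes HMG-CoA for sterol synthesis, stood at 9.51, 8.24 and 8.56 FPKM in the control libraries and at 179, 173 and 174 FPKM at 24 h, a log2 fold change of 4.27 (standard error 0.072, edgeR adjusted p = 2.0e-20). C5AR1, the receptor for the complement fragment C5a, was close to silent in the control at 0.11, 0.14 and 0.14 FPKM and reached 3.27, 2.73 and 2.76 FPKM at 24 h. MYC stood at 204, 213 and 204 FPKM in the control and at 42.2, 46.1 and 43.1 FPKM at 24 h, and its log2 fold change was -2.29 (standard error 0.063, edgeR adjusted p = 2.7e-17). FKBP4, a cochaperone of HSP90, fell from 93.1, 90.5 and 89.5 FPKM to 33.5, 33.5 and 34.2 FPKM. None of these 4 genes had overlapping groups. MYC had already reached a mean of 54.1 FPKM at 30 min, whereas HMGCS1 was at 8.35 FPKM and FKBP4 at 93.7 FPKM at that time.

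Few of the increases were present early. Of the 1820 genes up-regulated at 24 h, 10 were called higher at 30 min and 9 were called lower, and their median log2 fold change at 30 min was 0.038, with both times read against the same controls. The whole set of tested genes had 15 higher and 64 lower calls at 30 min.

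Each list count below is to be read against the 15.1% of all tested genes that were up-regulated and the 11.2% that were down-regulated. Of the gene lists, cholesterol synthesis had the highest median fold change. Among 19 tested enzymes of the pathway, 17 were up-regulated and 0 down-regulated, with a median log2 fold change of 2.53 against 0.0082 over all tested genes. The summed level of these enzymes was 431.6 to 452.2 FPKM in the control libraries and 2206.6 to 2288.2 FPKM at 24 h. MSMO1, a sterol C4 methyl oxidase, went from 2.81, 3.21 and 3.57 FPKM to 61.4, 57.4 and 55.5 FPKM. MVD, which makes isopentenyl diphosphate, went from 7.08, 8.26 and 8.03 FPKM to 104, 96.5 and 104 FPKM. These genes moved from low to high expression in every library. LSS, which closes the sterol rings, rose 8.94-fold from 19.8 ± 0.771 to 183 ± 4.05 FPKM (SD, n = 3). HSD17B7 of the same list was not tested, at a mean of 0.003 FPKM in the control.

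Genes that bring sterol into cells or sense it rose as well. Of 13 tested members of the list of sterol uptake and SREBP control, 8 were up-regulated. STARD4, a sterol carrier, stood at 2.34, 2.15 and 2.74 FPKM in the control and 20.9, 18.3 and 18.1 FPKM at 24 h. INSIG1, which holds SREBP in the endoplasmic reticulum and is itself an SREBP target, went from 31.6, 31.6 and 32.9 FPKM to 225, 210 and 217 FPKM. The single member called down-regulated, named after its value was seen, was MYLIP, a ubiquitin ligase, with a log2 fold change of -0.98.

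Fatty acid genes formed a smaller group, with 8 of 15 tested members up-regulated and 0 down-regulated. ACSS2, which makes acetyl-CoA from acetate, rose from 3.36, 3.23 and 2.87 FPKM to 43.4, 38.1 and 41.2 FPKM. SCD, the stearoyl-CoA desaturase, rose from 79.3, 73.1 and 81.6 FPKM to 490, 483 and 476 FPKM, and this gain was among the 10 largest of all up-regulated genes. The desaturases FADS1 and FADS2 rose 4.51-fold and 5.87-fold. Lipid storage and efflux genes were mixed, with 4 of 13 up-regulated, namely NR1H3, PLIN2, PNPLA2 and PPARG, and 2 down-regulated, FABP5 and HILPDA. PPARG, a nuclear receptor of fat and macrophage cells, reached 3.04, 3.73 and 3.42 FPKM from 1.22, 1.24 and 0.74 FPKM, while FABP5, a fatty acid carrier, fell from 42.1, 42.9 and 40.1 FPKM to 20.6, 21.1 and 20.3 FPKM. The sterol exporters ABCA1 and ABCG1 were not tested, at means of 0.013 and 0.027 FPKM in the control. At 30 min, 0 members of these 4 lipid lists were called.

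**Figure D2:**
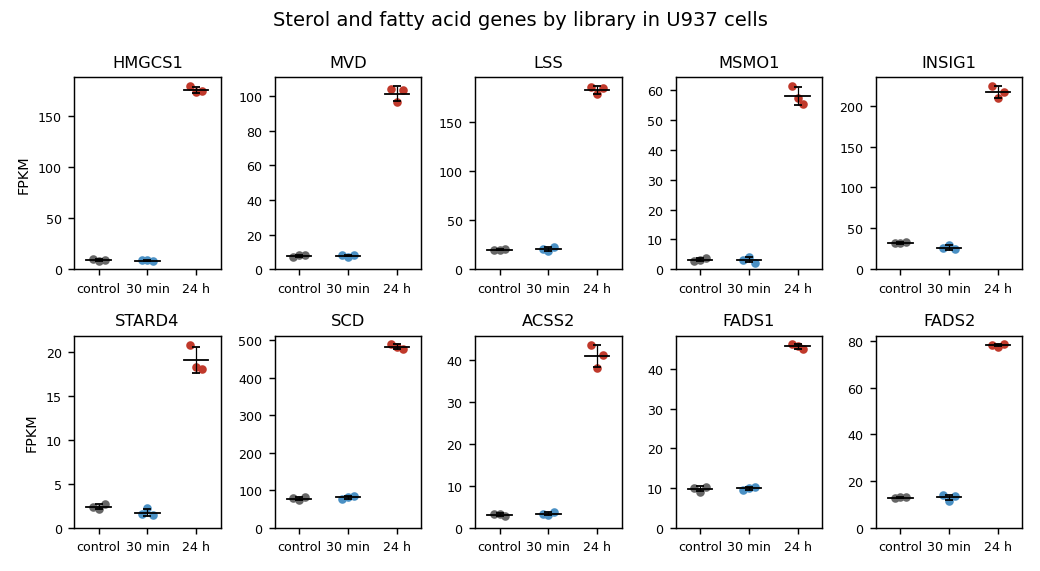
FPKM of 10 sterol and fatty acid genes (linear y axes from 0) in each control, 30 min and 24 h U937 library, with points for libraries and a line and bar for the mean ± SD of 3. All 24 h points lie above all control and 30 min points, as for HMGCS1 at 173 to 179 FPKM against 8.24 to 9.51 in the control.

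Promoter sequences were read for 8578 of the 12035 tested genes, from RefSeq on GRCh38.p14, as windows from 250 bases before to 50 after each listed start. The letters CCAAT, read on both strands, are the box bound by NF-Y, a partner of SREBP at many sterol genes, and were searched after the gene changes were known. They occurred in 26 of 40 windows (65.0%) of up-regulated genes on the cholesterol synthesis, sterol uptake and SREBP control, and fatty acid lists. The list of lipid storage and efflux was not part of this set. The share was 35.0% of the 12299 windows of all tested genes and 35.8% of those of up-regulated genes. Counted by gene, the letters were found for 22 of the 26 lipid genes with a window and for 3697 of the 8578 tested genes. The windows of switch-on genes held them in 26.7%. The share was also above that of all windows, at 47.8% of 23 windows, for up-regulated genes of the ATF4 stress list. It was 32.0% of 50 windows for up-regulated lysosome and autophagy genes and 37.9% of 58 for down-regulated ribosome biogenesis genes. The letters TCACGTGA and TGATGNAA were searched as well, and were in 1 and 0 of the 40 lipid windows. The sterol element TCACNCCAC, also on both strands, was in 1.05% of all windows and in 1 of the 40 lipid windows, that of SREBF2, which says only that these letters are not in the other windows. The 200 bases upstream of the first listed start are shown for HMGCS1 and INSIG1 of the lipid lists and for C5AR1, a switch-on gene. CCAAT or its reverse complement is in capitals.
HMGCS1 (chr5:43313413-43313612, minus strand): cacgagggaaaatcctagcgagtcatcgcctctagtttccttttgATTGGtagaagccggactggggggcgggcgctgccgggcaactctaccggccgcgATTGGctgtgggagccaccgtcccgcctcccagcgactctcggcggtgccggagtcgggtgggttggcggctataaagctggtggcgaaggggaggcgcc
INSIG1 (chr7:155297678-155297877, plus strand): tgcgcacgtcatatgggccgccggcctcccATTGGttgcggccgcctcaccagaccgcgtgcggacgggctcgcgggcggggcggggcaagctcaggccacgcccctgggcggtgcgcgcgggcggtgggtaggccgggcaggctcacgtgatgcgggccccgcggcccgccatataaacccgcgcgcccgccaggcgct
C5AR1 (chr19:47309661-47309860, plus strand): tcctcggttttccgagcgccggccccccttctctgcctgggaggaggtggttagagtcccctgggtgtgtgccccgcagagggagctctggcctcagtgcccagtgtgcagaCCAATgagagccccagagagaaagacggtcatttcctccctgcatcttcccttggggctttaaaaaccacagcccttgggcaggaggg

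HMGCS1 held 2 matches in this stretch, ending 151 and 96 bases before the start, INSIG1 held 1 at 166 bases and C5AR1 held 1 at 84 bases. A match of letters is a description of the window and not evidence of a bound site.

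Among up-regulated genes with a control mean of at least 1 FPKM and groups that did not overlap, 4 of the 10 largest folds were in genes outside lipid metabolism. DDIT4, an inhibitor of mTORC1 that is induced by stress, rose from 8.34, 10.4 and 9.04 FPKM to 122, 135 and 131 FPKM (log2 fold change 3.76, standard error 0.081, edgeR adjusted p = 4.8e-19). TUBA1A, an alpha-tubulin best known from neurons, rose from 10.0, 9.66 and 8.95 FPKM to 137, 132 and 126 FPKM. MS4A7, a membrane protein of monocytes and macrophages, rose from 2.49, 1.98 and 2.47 FPKM to 30.6, 30.3 and 29.0 FPKM. TSC22D3, also known as GILZ and induced by glucocorticoids, rose from 1.18, 1.34 and 1.32 FPKM to 12.1, 13 and 12.3 FPKM. The groups did not overlap in any of the 4, and the 30 min means of DDIT4, TUBA1A, MS4A7 and TSC22D3 were 6.30, 9.49, 1.89 and 1.03 FPKM. Tubulin genes are near-identical in their coding sequence, and reads of one can be counted for another.

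Measured as a gain in FPKM, the leading genes were those of abundant proteins. CTSD, a lysosomal aspartic protease, gained most, from 516, 597 and 543 FPKM to 1289, 1281 and 1355 FPKM. TMSB4X, which binds actin monomers, was at 1230, 1343 and 1162 FPKM in the control and 1895, 1961 and 2016 FPKM at 24 h. The change of TMSB4X was 1.52-fold, just over the threshold, and its call was lost under 4 of 17 alternatives, which were edgeR's own filter, no filter on low values and leaving out replicate 3 of either group. TPSAB1, a mast cell tryptase, rose 3.89-fold from 100.1 ± 6.27 to 403 ± 14.2 FPKM (SD, n = 3). The glyoxalase GLO1, the calcium-binding S100A4 and the galectin LGALS1 rose 2.44-fold, 2.25-fold and 2.10-fold. TPSAB1 has near-identical tryptase copies, so its level may include reads of these.

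Lysosomal genes rose broadly but by less. Among 43 tested lysosomal hydrolases 19 were up-regulated and 2, HYAL2 and PPT2, down-regulated, with a median log2 fold change of 0.54, and all 3 libraries at 24 h were above the controls in 35 of the 43. CTSO, a cysteine cathepsin, reached 6.15, 5.35 and 5.39 FPKM from 1.01, 0.96 and 1.09 FPKM. ASAH1, the acid ceramidase, reached 167, 167 and 160 FPKM from 45.7, 44 and 44.7 FPKM, and NEU1, the lysosomal sialidase, rose 3.47-fold. ASAH1 and NEU1 are genes for the breakdown of lipids and glycoproteins. Of 25 tested lysosomal membrane proteins, 10 were up-regulated and 0 down-regulated, led by GPNMB, a glycoprotein of macrophages and melanocytes, from 43.4, 41.2 and 43.3 FPKM to 170, 172 and 165 FPKM. Of the 16 tested subunits of the proton pump V-ATPase, 3 were up-regulated, ATP6AP1, ATP6V0D1 and ATP6V1D, a share of 18.8% that is close to the 15.1% of all tested genes. Autophagy genes had 12 of 43 up-regulated and 0 down-regulated. The cargo receptor OPTN rose 4.90-fold, WIPI1, which binds phosphoinositides on forming autophagosomes, rose 4.80-fold, and the cargo receptor SQSTM1 reached 43.5, 45.4 and 46.4 FPKM from 22.5, 23.2 and 22.9 FPKM.

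Receptors and surface proteins of monocytes and macrophages were among the genes that went up, although not as a block. Of 17 tested Fc, complement and phagocytic receptors 7 were up-regulated and 1, the IgA receptor FCAR, was down-regulated. ITGAX, the CD11c chain of complement receptor 4, went from 0.66, 0.51 and 0.65 FPKM to 4.03, 4.10 and 3.56 FPKM. TYROBP and FCER1G, the signalling adaptors of many activating receptors, rose from 11.1, 15 and 13.6 FPKM to 55.5, 57.6 and 60.2 FPKM and from 45.8, 50.4 and 47.3 FPKM to 162, 159 and 163 FPKM. The groups of both adaptors did not overlap. MARCO, a scavenger receptor of macrophages, was at 0.51, 1.19 and 1.17 FPKM and then 3.11, 3.38 and 3.39 FPKM. Of 27 tested differentiation markers 11 were up-regulated and 2, FCN1 and TNFSF13B, down-regulated. The list has 51 members, and those with a mean FPKM of 1 or less were not tested, such as CD14, CD163 and CSF1R. Their means were 0.033, 0.003 and 0.627 FPKM in the control and 0.113, 0.007 and 0.693 FPKM at 24 h. Among the markers tested, CHI3L1, a secreted chitinase-like protein, rose from 7.39, 6.83 and 6.66 FPKM to 41.8, 41.1 and 41.2 FPKM. Integrins and adhesion molecules had 10 of 30 up-regulated and 1, ITGB5, down-regulated, and the former included the tetraspanin CD82, from 13, 12.5 and 13.7 FPKM to 54.7, 57.1 and 56.3 FPKM.

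Chemoattractant receptors were divided. Of 23 tested, 6 were up-regulated and 3, GPR84, P2RY2 and P2RY6, were down-regulated, and the median log2 fold change was 0.07. C5AR1 and GPR34, a receptor for lysophosphatidylserine, started below 0.2 FPKM and had the largest changes of those tested. A receptor with so low a control level passed the filter only through a high 24 h level, so this rank is a description. FPR1, at means of 0.133 FPKM in the control and 0.703 FPKM at 24 h, was not tested. CX3CR1, the fractalkine receptor, rose from 0.58, 0.65 and 0.92 FPKM to 1.62, 2.08 and 1.6 FPKM, while GPR84, a receptor for medium-chain fatty acids, fell from 7.74, 7.23 and 7.97 FPKM to 3.17, 2.62 and 2.20 FPKM. Genes of secreted signals were divided too. Among 18 tested chemokines and cytokines 7 were up-regulated and 4, CCL2, CXCL8, TNF and TNFSF13B, were down-regulated. IL1RN, the interleukin-1 receptor antagonist, rose from 1.02, 0.89 and 0.94 FPKM to 3.44, 2.80 and 2.90 FPKM, whereas the neutrophil chemokine CXCL8 fell from 8.2, 9.85 and 8.46 FPKM to 1.69, 1.9 and 1.73 FPKM and the monocyte chemokine CCL2 fell from 43.6, 41.6 and 41.1 FPKM to 8.26, 9.16 and 9.62 FPKM. CXCL8 and CCL2 were already at means of 1.71 and 10.3 FPKM at 30 min, when 5 tested members of the list were called lower.

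Proteins of azurophil and specific granules moved in both directions. Of 17 tested, 7 were up-regulated and 2, PRTN3 and SRGN, were down-regulated. The elastase gene ELANE was 849, 983 and 823 FPKM in the control and 1337, 1339 and 1457 FPKM at 24 h. Its call at a fold of 1.5 was lost under 7 of 17 alternatives. AZU1, azurocidin, rose from 195, 228 and 193 FPKM to 355, 360 and 355 FPKM, but PRTN3, proteinase 3, fell from 594, 741 and 604 FPKM to 297, 298 and 306 FPKM. CAMP, the cathelicidin of specific granules, rose from 0.71, 0.55 and 0.31 FPKM to 2.94, 3.36 and 3.38 FPKM. ELANE, AZU1 and PRTN3 are neighbours in the genome and did not change alike. Myeloid transcription factors had 6 of 29 up-regulated and 2, BATF3 and ID1, down-regulated. These shares of 20.7% and 6.9% lay near those of all tested genes, and the median log2 fold change was -0.05. Among them MEIS1, a homeobox factor of leukemia cells, rose from 4.10, 3.95 and 4 FPKM to 10.1, 9.26 and 8.74 FPKM and BCL6, a transcriptional repressor, from 0.93, 0.84 and 0.96 FPKM to 2.14, 2.21 and 2.19 FPKM.

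Interferon-stimulated genes rose in 15 of 29 tested members and 1, IFITM2, fell. The list has 62 members, and those at low levels were not tested. Among these were MX1, at means of 0.177 FPKM in the control and 0.443 FPKM at 24 h, and IFI44L, at 0 and 0.007 FPKM. A low member passed the filter more easily when it was higher at 24 h. IRF7, the inducible regulator of type I interferon genes, went from 1.59, 2.04 and 1.91 FPKM to 9.98, 8.16 and 9.49 FPKM. STAT2, a transducer of the interferon signal, went from 3.39, 3.04 and 3.05 FPKM to 13.5, 13.2 and 12.9 FPKM. IFIT3 and IFI6 rose to 4.41, 4.63 and 4.11 FPKM and to 61.8, 63.3 and 62.0 FPKM from means of 1.79 and 28.5 FPKM. Of 25 antigen presentation genes 8 were up-regulated, HLA-E among them at a log2 fold change of 0.79, and 1 was down-regulated, the peptide transporter subunit TAP2 at -0.74.

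The list of cell cycle inhibitors and quiescence had 15 of 36 tested members up-regulated and 1 down-regulated. The latter was CCND2, which is a cyclin and not an inhibitor. CDKN1A, the CDK inhibitor p21, went from 0.98, 1.35 and 1.20 FPKM to 7.91, 6.65 and 7.02 FPKM. YPEL5, a zinc-binding protein of the spindle, went from 2.22, 2.19 and 1.96 FPKM to 12.3, 11.7 and 10.9 FPKM, and PIK3IP1, an inhibitor of PI3 kinase, rose 4.63-fold. DNA replication genes had 8 of 40 down-regulated and 0 up-regulated, and mitosis genes had 7 of 52 down-regulated and 2, CDC25C and CENPI, up-regulated. The 13.5% of mitosis genes that were down-regulated lay near the 11.2% of all tested genes, and the median log2 fold change of the list was -0.27. The replication factor RFC3 fell from 31.3, 29.4 and 30.3 FPKM to 15.4, 15.1 and 14.9 FPKM and the cyclin CCNB1 from 101, 103 and 101 FPKM to 65.5, 63.4 and 65.0 FPKM. Of 13 tested histone genes 1 was up-regulated and 0 were down-regulated.

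Stress-responsive genes rose in the ATF4 list, where 16 of 37 tested were up-regulated and 0 down-regulated. DDIT3, the factor CHOP, went from 5.96, 6.4 and 6.23 FPKM to 31.6, 35.7 and 32.3 FPKM, SESN2, a leucine sensor that restrains mTORC1, rose 3.57-fold, and the hormone gene ADM2 went from 0.78, 0.80 and 0.72 FPKM to 2.55, 2.99 and 2.91 FPKM. Of 36 unfolded protein response genes 8 were up-regulated, a smaller share at 22.2%, and the median log2 fold change was 0.20. ERN1, the sensor IRE1, rose from 2.20, 1.97 and 2.03 FPKM to 5.13, 5.17 and 4.79 FPKM. The list of BCL2 family members and death receptors had 8 of 31 up-regulated and 2, the death receptors TNFRSF10A and TNFRSF21, down-regulated. BMF, which binds and blocks BCL2, rose from 1.39, 1.42 and 1.31 FPKM to 7.56, 7.18 and 7.33 FPKM, and BCL2A1, which protects cells, rose from 26.2, 29.0 and 24.6 FPKM to 52.7, 54.8 and 55.4 FPKM. The p53 target list had 6 of 29 up-regulated (20.7%) and 5 down-regulated (17.2%), the latter AEN, ASCC3, GADD45A, TNFRSF10A and TRIAP1. The shares of all tested genes were 15.1% and 11.2%. Of the leading genes of the p53 list, CDKN1A rose and AEN, an exonuclease of apoptosis, fell from 17.7, 18 and 19.6 FPKM to 7.76, 7.92 and 8.59 FPKM.

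A further 6 lists, from iron genes to semaphorins, had median log2 fold changes of -0.23 to 0.18. The iron and antioxidant genes had 6 of 31 up-regulated and 3, ABCC4, GCLM and SOD1, down-regulated. FTH1, the ferritin heavy chain, was at 182, 199 and 193 FPKM against 72.7, 78.7 and 68.7 FPKM in the control, and GCLM, a subunit for glutathione synthesis, was at 4.08, 4 and 4.27 FPKM against 11.1, 9.68 and 11 FPKM. Glycolysis genes had 5 of 26 up-regulated, ALDOC, HK3, PFKFB4, SLC2A3 and SLC2A6, and 2 down-regulated, SLC16A1 and SLC2A1. AP-1, EGR and KLF factors had 7 of 25 up-regulated and 5 down-regulated, BATF3, FOSB, FOSL1, KLF16 and MAFK. Feedback regulators of the RGS and DUSP kind had 6 of 23 up-regulated and 4 down-regulated, DUSP1, DUSP2, PDE4B and RGS16. Of genes that mark BET inhibition, 3 of 12 were up-regulated, CLU and ZCCHC24 among them, and 0 were down-regulated. Semaphorins, ephrins and Wnt receptors had 7 of 26 up-regulated and 4 down-regulated, EFNA3, JAG1, PLXNA1 and SEMA3F. The Notch ligand JAG2 had the largest increase of the developmental group, from 0.77, 0.54 and 0.48 FPKM to 3.10, 3.68 and 2.85 FPKM.

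In the down-regulated direction, 58 of 66 ribosome biogenesis factors, 18 of 32 heat shock proteins and cochaperones and 16 of 31 purine and pyrimidine synthesis genes were called, and in each of these 3 lists 0 were up-regulated. Their median log2 fold changes were -0.92, -0.70 and -0.59. The RNA helicase DDX21, the largest decrease of the first list, stood at 126, 111 and 128 FPKM and then 42.7, 44.9 and 42.2 FPKM. The letters CACGTG, the E-box that MYC binds, were read on both strands. They were in 39.7% of the 58 windows of down-regulated ribosome biogenesis genes, 9.90% of all windows and 7.77% of those of up-regulated genes. The share was also above that of all windows for up-regulated lysosome and autophagy genes. The ribosome biogenesis windows were those of genes already called lower, and uncalled members of the list were not compared. Whether MYC acts at these letters was not tested. Of the 5 largest decreases with groups apart, 2 lack a symbol. The others were FJX1, CTXN1, a small membrane protein, which fell from 15.1, 20.3 and 16.1 FPKM to 1.42, 1.54 and 1.51 FPKM, and DNAAF3, a dynein assembly factor, which fell from 2.07, 2.30 and 2.22 FPKM to 0.19, 0.10 and 0.14 FPKM.

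**Figure D3:**
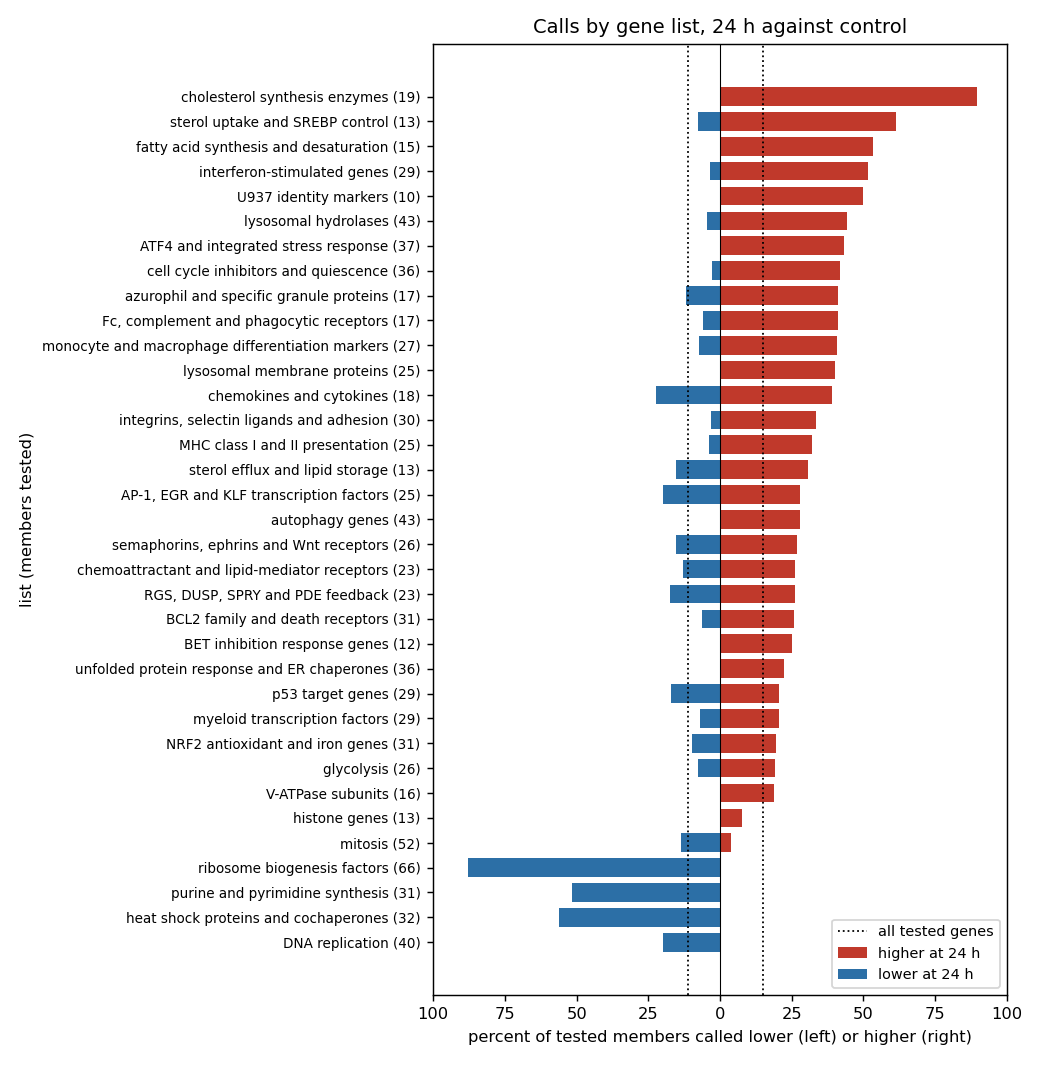
Share of tested members called higher (right, red) or lower (left, blue) at 24 h for each list with 10 or more tested members, in percent, with the number tested in parentheses. Dotted lines mark the 15.1% higher and 11.2% lower of all 12035 tested genes; cholesterol synthesis reaches 89.5% higher and ribosome biogenesis 87.9% lower.

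Up-regulation was more frequent among genes of low expression. The median control level was 2.54 FPKM for up-regulated genes, 13.4 FPKM for down-regulated genes and 6.81 FPKM for all tested genes. Of genes with a mean level of 1 to 2 FPKM over the 6 libraries, 25.2% were up-regulated and 8.19% down-regulated. Between 20 and 50 FPKM these shares were 7.29% and 16.1%. The filter itself uses the 24 h libraries, and a gene with a low control level passed it more easily when it was higher at 24 h.

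Long noncoding RNAs were called higher more often than protein-coding genes. Of 869 tested lncRNA genes 296 were up-regulated (34.1%) and 45 were down-regulated (5.18%), with a median log2 fold change of 0.38. Among 9936 protein-coding genes 1339 were up-regulated (13.5%) and 1185 were down-regulated (11.9%), with a median of -0.02. The gap was present at like levels: between 2 and 5 FPKM, 37.7% of lncRNA and 18.1% of protein-coding genes were up-regulated, and between 10 and 20 FPKM 43.6% of 39 and 9.24% of 2045. Since the strand setting of the counting is not stated, lncRNA genes that overlap protein-coding genes on GENCODE 44 were set apart. The share was 31.9% for the 589 that overlap one, 38.6% for the 280 that do not, and 45.9% for the 135 that lie over 5 kb from every protein-coding gene. Transcribed unprocessed pseudogenes were also often higher, 35 of 115, whereas processed pseudogenes, which lack promoters and introns of their own, had 20 of 338 higher and 49 lower.

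**Figure D4:**
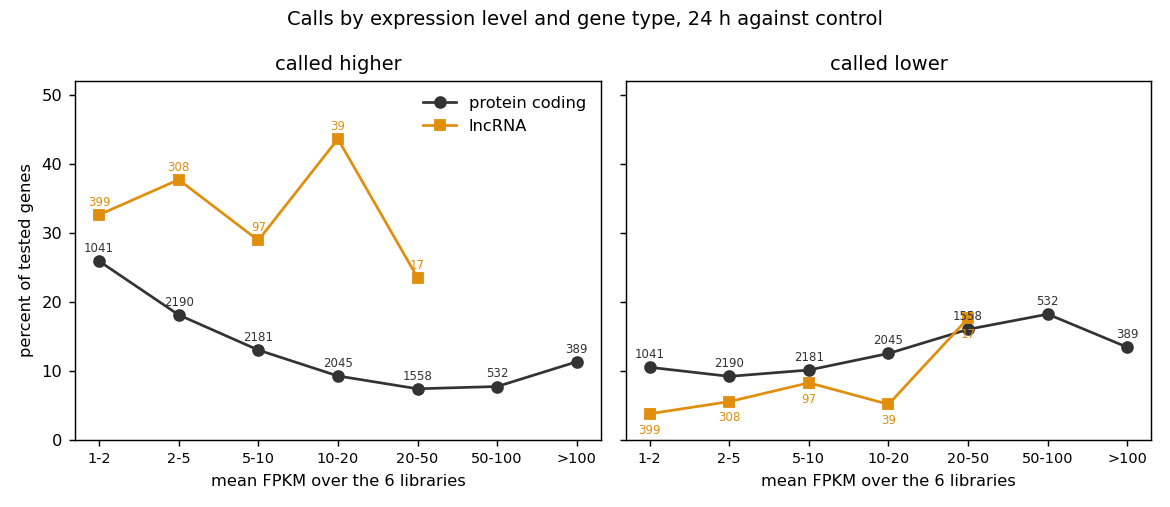
Percent of tested genes called higher (left panel) and lower (right panel) by mean FPKM over the 6 libraries, for protein-coding genes (circles) and lncRNA genes (squares), with the number of genes beside each point. The lncRNA share called higher is 32.6% at 1 to 2 FPKM and 37.7% at 2 to 5 FPKM, against 25.9% and 18.1% of protein-coding genes.

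Switch-on genes were chosen for a mean control level under 0.5 FPKM together with the call, so the following values are a description and their number supports nothing. In all, 44367 genes had a mean control level under 0.5 FPKM, 30137 of them without a count in the 6 libraries. Of these, 64 passed the filter on the mean, which a gene with such a control level can pass through its 24 h level alone, and 55 of these (0.457% of all tested genes) were called higher while 9 were not called. The number moved with the libraries used, since the filter reads their mean: it was 87, 78 and 91 without control replicate 1, 2 or 3, and 39, 36 and 40 without replicate 1, 2 or 3 of 24 h. Just inside the limit of 0.5 FPKM were OPRK1, at a control mean of 0.483 FPKM, and 2 genes without a symbol at 0.487 and 0.490 FPKM. Just outside it were TPSB2, a near copy of TPSAB1, AKAP1-DT and another gene without a symbol, each at 0.50 FPKM. Counted by level alone, 92 genes had a control mean under 0.5 FPKM and a 24 h mean of 1.5 FPKM or more, and 12 had the reverse. At 30 min the same counts were 9 and 13.

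The 55 genes comprised 29 protein-coding genes, 14 lncRNA genes, 9 identifiers that are not in GENCODE 44 and 3 of other types. Their mean level at 24 h was 1.54 to 7.76 FPKM, with a median of 2.27. At 30 min, 41 still had a mean under 0.5 FPKM, 11 lay between 0.5 and 1 FPKM and 3 were at 1 FPKM or more. The 3 libraries at 24 h lay above all controls in 53 of them, and 36 rested on 100 or more reads over the 3 libraries at 24 h. Another 6 rested on fewer than 30 reads, and 4 had no read in any control. One of these 4, RNU6-878P, a U6 snRNA pseudogene, was listed at 0, 4.02 and 2.91 FPKM at 24 h from 16 reads, so that no fold is given for it or for the others without a control read. Of 46 switch-on genes whose position could be compared, 13 overlapped another up-regulated gene by gene body, on either strand. Whether exons are shared was not examined. Where they are, reads may not be told apart from those of the neighbour without a strand setting.

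LINC03040, a long intergenic RNA, was the most abundant switch-on gene at 24 h. It stood at 0.20, 0.36 and 0.31 FPKM in the control, at 0.26, 0.17 and 0.29 FPKM at 30 min and at 7.95, 7.25 and 8.07 FPKM at 24 h, or 64 and 1909 reads in all in the control and 24 h groups. Its log2 fold change was 4.71 (standard error 0.17). ERV3-1, the envelope gene of an endogenous retrovirus, rose from 0.11, 0.09 and 0.25 FPKM to 3.34, 3.50 and 2.63 FPKM. TDRD9, a germline helicase that silences transposons, rose from 0.46, 0.34 and 0.37 FPKM to 3.73, 3.32 and 3.42 FPKM. Both are genes better known from germline or placenta. VWA5A, a protein with a von Willebrand domain, rose from 0.26, 0.23 and 0.32 FPKM to 3.09, 3.24 and 2.79 FPKM, SMIM14, a small membrane protein, from 0.41, 0.25 and 0.33 FPKM to 3.68, 3.39 and 3.01 FPKM, and FXYD6, a regulator of the sodium pump, from 0.34, 0.47 and 0.56 FPKM to 3.54, 3.49 and 3.20 FPKM. In each of these genes the 30 min libraries stayed below 0.6 FPKM.

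C5AR1 drew on 22 reads over the 3 control libraries and 540 over the 3 libraries at 24 h. Its log2 fold change was 4.42 (standard error 0.25), which is a description, since C5AR1 passed the filter only through its 24 h level. Its 30 min libraries were at 0.28, 0.18 and 0.37 FPKM, a log2 fold change of 1.11 that was not called. C5AR2, the second C5a receptor, was not tested, at means of 0.147 FPKM in the control and 0.217 FPKM at 24 h. GPR34 went from 0.10, 0.13 and 0.12 FPKM to 2.40, 2.14 and 1.93 FPKM. It lies inside CASK, which was up-regulated as well. MPO, the peroxidase of azurophil granules, went from 0.21, 0.44 and 0.29 FPKM to 1.91, 1.94 and 1.66 FPKM, a level that remained far below that of ELANE.

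Other switch-on genes with known roles, named after their values were seen, fell into a few kinds. SOCS1, which blocks JAK kinases, rose from 0.55, 0.38 and 0.38 FPKM to 2.54, 2.49 and 2.88 FPKM, and BCL3, an IkB protein that acts in the nucleus, from 0.43, 0.54 and 0.46 FPKM to 2.18, 2.76 and 2.53 FPKM. The secreted serine proteases HTRA1 and HTRA4 reached means of 2.38 and 2.76 FPKM, and the adhesion molecule ICAM5 reached 2.17, 2.93 and 3.20 FPKM. PLIN4, a coat protein of lipid droplets, was at 1.95, 2.00 and 1.87 FPKM after 0.36, 0.48 and 0.53 FPKM. MILR1, an inhibitory receptor of mast cells, reached a mean of 2.42 FPKM. MUC1, a mucin of epithelia that some blood cells also make, was at 1.62, 2.33 and 1.52 FPKM after 0.46, 0.43 and 0.36 FPKM. SIGLEC15, a sialic acid receptor of macrophages and osteoclasts, was at 2.04, 1.75 and 1.48 FPKM after 0.35, 0.60 and 0.40 FPKM, but it overlaps EPG5, which was up-regulated. TNFRSF14-AS1 and SLC22A18AS likewise overlap TNFRSF14 and SLC22A18. TSPOAP1, which overlaps its antisense gene TSPOAP1-AS1, was the 1 switch-on gene called higher at 30 min.

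**Figure D5:**
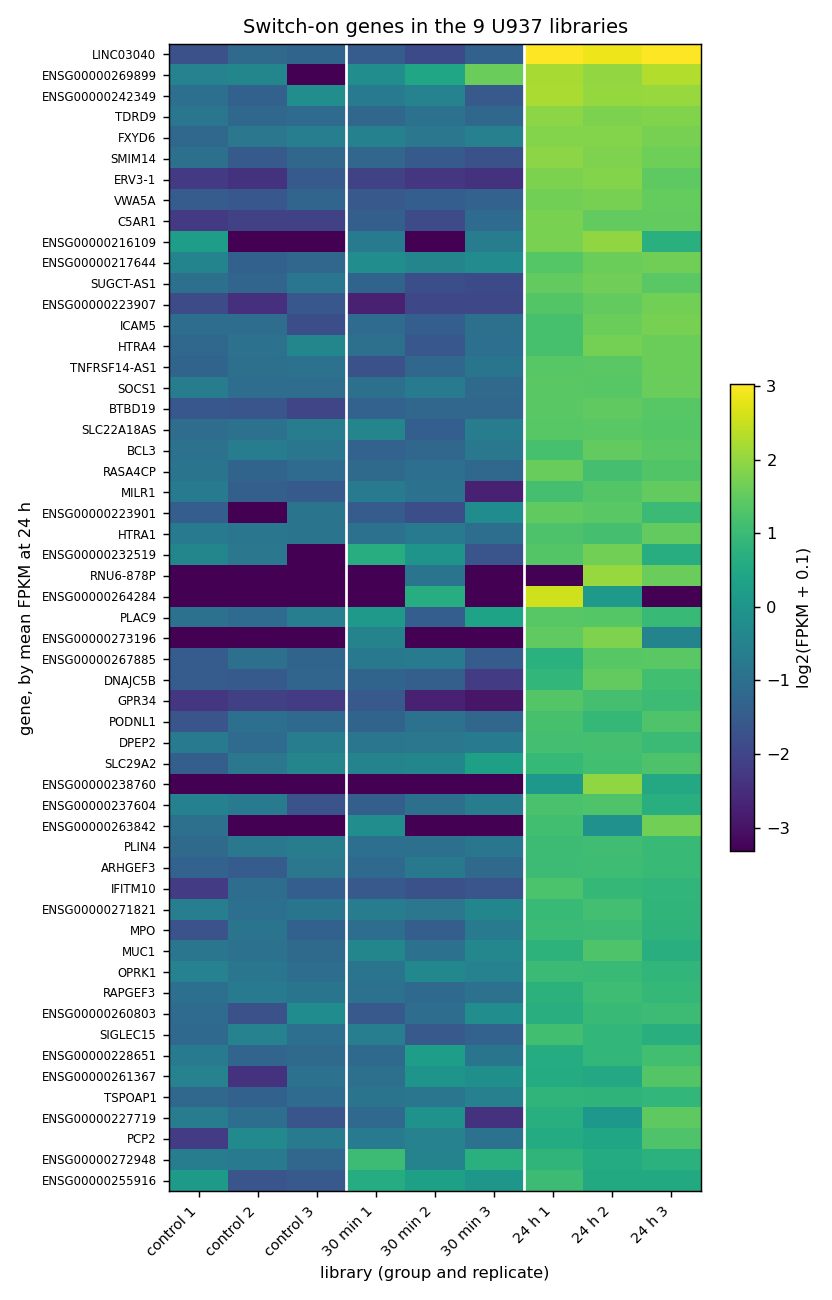
Level of each of the 55 switch-on genes (rows, by mean FPKM at 24 h) in the 9 U937 libraries (columns), coloured by log2(FPKM + 0.1). The 24 h columns are brightest for LINC03040 at 7.25 to 8.07 FPKM, and rows such as RNU6-878P, which is dark in 1 of the 3 libraries at 24 h, rest on few reads.

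The reverse pattern, a called fall to a mean under 0.5 FPKM at 24 h, was found in 8 genes. Besides DNAAF3 they held TERT, the catalytic subunit of telomerase, at 1.96, 2.52 and 2.46 FPKM in the control and 0.40, 0.55 and 0.42 FPKM at 24 h, and FJX1, a secreted kinase-like protein, at 3.56, 4.90 and 3.74 FPKM and then 0.31, 0.53 and 0.44 FPKM. TERT was at a mean of 2.20 FPKM at 30 min, like its control.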

How the data were processed

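Per the labels and the paper's methods, the authors trimmed reads with cutadapt 1.9.1, aligned them with HISAT2 2.0.1 and counted them per gene with HTSeq 0.6.1. The labels name GRCh37 and the paper hg38; gene coordinates of the files are therefore not printed. Which annotation release and strand setting were used is not given in the sources used here. The libraries were made with an mRNA-seq kit, and the methods name both poly(A) isolation and rRNA removal. The deposited counts are unnormalized, and the FPKM values, also made by the authors, served for the filter and the printed levels. Symbols were matched by identifier to GENCODE 44 (51996 of 57905).

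Counts of all 9 U937 libraries were fitted together with edgeR 4.0.16 (TMM, quasi-likelihood F test, R 4.3.3) and Benjamini-Hochberg adjustment over 12035 genes, those with a mean FPKM above 1. The square root of F divides the log2 fold change to give its standard error. Calls needed an adjusted p under 0.05 and a change of 1.5-fold or more. The study describes its data in general as coming from independent replicates, but whether the 3 RNA-seq libraries of a group came from separate cultures is not stated, so p-values measure the spread between libraries, which exceeded sampling noise in every pair within a group. The fit, DESeq2 1.42.0 and limma 3.58.1 (on log2(FPKM + 0.1)) were tested on simulated data and used as alternatives, besides other filters, scalings, thresholds, a replicate block and each library left out.

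The members and the 42 gene lists were chosen with earlier results of these data known, so that list counts are descriptions. Genes named are the 4 markers, the 10 largest folds (control mean of at least 1 FPKM, groups apart), the 10 largest gains in FPKM, the 10 most abundant switch-on genes, the 5 largest decreases and up to 4 called members per list, or every called member where 5 or fewer were called; of these, some are given by counts alone. Other genes were chosen after their values were seen. A few genes that the rule names are not reported here.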

Additional observations from a re-analysis of the deposited data

How the results depend on the processing

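The direction of all 158 named genes was kept under the 17 alternatives that gave gene values, wherever the gene was tested, and 146 kept their call as well. The other 12 were ATP6AP1, CCNB1, CD79A, ELANE, GP1BA, HLA-DMA, KIF18A, SEMA3F, TMSB4X, TNFRSF10A, TPT1 and the switch-on gene ENSG00000216109, which lost it under 6 alternatives. Counts followed the thresholds. With a mean FPKM above 5, 869 genes were higher, 808 lower and 0 switched on. At a fold of 2 or more, 765 were higher and 355 lower, without a fold threshold 3794 and 3824, and with a test against a fold of 1.5 (glmTreat) 1012 and 737. Switch-on genes numbered 800 with edgeR's own filter and 1007 without a filter, since genes of low mean then entered, and 364 and 11 with control limits of 1 and 0.25 FPKM. Leaving out each library in turn gave 1731 to 1841 higher genes, 1302 to 1426 lower genes and 36 to 91 switch-on genes. The lowest number came without 24 h replicate 2, and those without control replicates 1 and 3 were 87 and 91. DESeq2 called 1751 higher, 1360 lower and 52 switch-on genes. The share of calls that were lower was 42.5%, with 37.0% on library totals alone and 49.9% after quantile normalization.

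Deviations of same-numbered control and 24 h libraries correlated at 0.037, -0.053 and -0.097, and those of differently numbered libraries at -0.072 to 0.123. No effect shared by a replicate number was seen, but whether libraries were prepared as pairs cannot be read from these values. With the replicate block, 1815 genes were higher, 1343 lower and 56 switched on, and the block changed no call of a named gene. Depth limits short genes near 1 FPKM, some of which rest on 10 to 30 reads over the 3 libraries at 24 h, so that small changes in them were not detectable.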
